A study of Mus musculus with 7 samples.

Results

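Transforming growth factor beta (TGF-beta) genes were followed through the cells of 7 mouse malignant peripheral nerve sheath tumors (MPNSTs). The set held 8 genes, taken by symbol from the 33696 genes of the feature lists: the ligands Tgfb1, Tgfb2 and Tgfb3, the latent binding protein Ltbp1, the receptors Tgfbr1, Tgfbr2 and Tgfbr3, and the TGF-beta-induced matrix gene Tgfbi. All 8 were found in every library. JW23.3 is a mouse MPNST line with mutations in Nf1 and the gene of p53, and it was grown as subcutaneous allografts in wild-type female C57/B6 mice of 5 to 6 weeks. Of the 7 tumors, 4 received 5 daily fractions of 2 Gy limited to the tumor by lead shielding, and 3 control tumors received none. All were harvested on day 21 and profiled with a 3′ droplet assay, with 1 library per tumor, so that the tumor was the replicate and a single implanted line stood for the disease.

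TGF-beta is secreted as an inactive dimer, held by its own propeptide and tethered to the matrix by latent binding proteins until integrins, proteases or thrombospondin release it. The active ligand brings together the type II receptor Tgfbr2 and the type I kinase Tgfbr1, which phosphorylates Smad2 and Smad3, while Tgfbr3 (betaglycan) is a co-receptor that presents ligand, above all TGF-beta 2. In tumors the pathway is known for inducing matrix genes and for restraining T cells.

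The libraries held 39537 cells with medians of 6058.5 to 17930.5 unique molecular identifiers (UMIs) per cell, and 34296 cells were retained after a filter on outlying cells. The comparison across cell types used 4 classes of cells chosen by marker genes, none of which is a TGF-beta gene of the set. They were 14873 MPNST cells, 11311 macrophages, 1272 T and natural killer (T/NK) cells and 718 stromal cells, the last made up of 399 endothelial cells, 161 fibroblasts and 158 pericytes. Xist, which the female hosts express and which was not used to choose these cells, was found in 91.7% of macrophages, 90.8% of T/NK cells and 91.0% of endothelial cells, and MPNST cells were required to lack it. All 14 macrophage markers and 11 of 16 T/NK markers were found in at least 25% of the cells of their class, but only 6 of 15 MPNST markers in MPNST cells. Pairs of libraries shared 3 to 19 cell barcodes, at most 0.397% of the smaller library. Levels are given as CPM, the UMIs of a gene over all UMIs summed for a class in a tumor and scaled to the same total everywhere, so that they are set against the total RNA counted in that class.

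The gene set was spread over 8 chromosomes. In GENCODE M21 (GRCm38) all are protein-coding genes, with Tgfb1 (ENSMUSG00000002603) at chr7:25687002-25705077 on the plus strand, Tgfb2 (ENSMUSG00000039239) at chr1:186622792-186705989 on the minus strand and Tgfb3 (ENSMUSG00000021253) at chr12:86056745-86079041 on the minus strand. Ltbp1 (ENSMUSG00000001870) lies at chr17:75005568-75392512 and Tgfbi (ENSMUSG00000035493) at chr13:56609523-56639562, both on the plus strand. The receptor genes are Tgfbr1 (ENSMUSG00000007613) at chr4:47353222-47414931 on the plus strand, Tgfbr2 (ENSMUSG00000032440) at chr9:116084293-116175360 and Tgfbr3 (ENSMUSG00000029287) at chr5:107106570-107289629, both on the minus strand.

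Tgfb1 and Tgfb2 had their highest levels in different classes of cells, as described below, and the 120 bases before the RefSeq start of each (GRCm38.p6, read 5′ to 3′ on the gene's strand, chr7:25686882-25687001 for Tgfb1 and chr1:186705990-186706109 for Tgfb2) are shown because they also differ in their letters. Capitals mark the GC box GGGCGG and the TATA sequence TATAAA, searched on both strands.
Tgfb1: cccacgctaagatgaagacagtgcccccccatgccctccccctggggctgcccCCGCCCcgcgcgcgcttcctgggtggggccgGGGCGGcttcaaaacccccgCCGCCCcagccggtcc
Tgfb2: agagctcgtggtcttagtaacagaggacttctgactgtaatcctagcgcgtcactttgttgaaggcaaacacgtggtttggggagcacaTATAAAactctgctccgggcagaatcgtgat
The Tgfb1 stretch had 3 GC boxes and 76.7% G or C, and TATAAA was not among its letters. The Tgfb2 stretch had 48.3% G or C and 1 TATAAA beginning at position -31 from the start, and GGGCGG was not among its letters. Of the same 120 bases of 32851 promoters, 26.5% held GGGCGG and 6.34% held TATAAA, and the median was 54.2% G or C. A match describes the letters and is not evidence of binding.

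To determine which cells carried each ligand, levels were compared between classes in 1 model with the tumor as a block (edgeR's quasi-likelihood test, adjusted over 16677 genes). Most of the genes tested differed between these classes: 79.7% were called between MPNST cells and macrophages, 71.6% between MPNST and T/NK cells and 60.2% between MPNST and stromal cells. The shares were 59.6% between macrophages and T/NK cells, 70.6% between macrophages and stromal cells and 62.7% between stromal and T/NK cells. Of the 8 genes, 8, 8, 7, 6, 7 and 7 were called in these comparisons in that order. These numbers are to be read against those shares, so sizes and directions are given for each gene.

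Tgfb1, the ligand most tied to immune regulation, was highest per UMI in immune cells. It stood at 189 ± 34.0 CPM in macrophages and 198 ± 37.2 CPM in T/NK cells, against 76.2 ± 23.0 CPM in stromal and 31.2 ± 3.25 CPM in MPNST cells (mean ± SD, n = 7). In macrophages the controls gave 217, 149.7 and 178 CPM and the irradiated tumors 162, 249.5, 181 and 188 CPM. In MPNST cells the controls gave 34.7, 27.4 and 28.2 CPM and the irradiated tumors 29.6, 35.6, 29.6 and 33.1 CPM. Every tumor thus had several times more Tgfb1 per UMI in its macrophages than in its MPNST cells, at 546% to 701% of the MPNST level. The fitted difference of MPNST cells from macrophages was -2.98 ± 0.126 on the log2 scale (SE, adjusted p = 2.05e-18), and from stromal cells -1.15 ± 0.134 (adjusted p = 2.56e-08).

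Macrophages and T/NK cells could not be ordered for Tgfb1. The fit put macrophages higher by 0.41 ± 0.124 (log2, adjusted p = 0.00511), but its scaling (TMM) raised macrophages by 0.48 against T/NK cells, the unscaled mean was lower in macrophages, and DESeq2 made no call (adjusted p = 0.33). The rare NK cells were above the CD8, conventional CD4 and Foxp3 cells of their own tumor in 5 of 7 tumors, with 347 to 626 CPM in irradiated tumors and 471 CPM in control 1. In control 2 (5 UMIs in 7 cells, 184 CPM) and control 3 (9 UMIs in 10 cells, 159 CPM) they were not, and control 1 held 77 of the 91 NK UMIs of the controls. Means of T cell subsets were taken over tumors with at least 20 such cells. CD8 T cells stood at 136 CPM and conventional CD4 T cells at 171 CPM over 6 tumors, and Foxp3 cells (regulatory T cells) at 146 CPM over 5. The tumors left out were higher. They held Foxp3 cells at 425 CPM (17 cells, irradiated 1) and 436 CPM (15 cells, control 3). In irradiated 2 they held CD8 cells at 311 CPM (16 cells) and conventional CD4 cells at 242 CPM (17 cells). The NK values rested on 6 to 14 cells per tumor, so the subsets were not ordered.

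Tgfb2, the isoform that depends most on betaglycan, was the reverse of Tgfb1. MPNST cells held 112 ± 26.3 CPM (SD, n = 7), with 102, 110.2 and 137 CPM in controls and 97.6, 159, 87.5 and 90.9 CPM in irradiated tumors. Only 116 UMIs were counted in all macrophages (1.21 ± 0.610 CPM) and 10 UMIs in all T/NK cells (2.07 ± 1.65 CPM). MPNST cells exceeded macrophages by 6.21 ± 0.275 (log2, adjusted p = 6.55e-16) and T/NK cells by 6.04 ± 0.421 (adjusted p = 7.61e-12). They exceeded stromal cells by only 0.56 ± 0.221 (adjusted p = 0.0314). This call was lost with DESeq2 (adjusted p = 0.296), with classes taken from clusters (0.41, adjusted p = 0.0804) and without 5 of the 7 tumors in turn. Within stroma, pericytes, the contractile cells of small vessels, ran from 35.8 to 424 CPM, endothelial cells from 42.4 to 93.6 CPM and fibroblasts from 25.1 to 63.9 CPM, and pericytes were above fibroblasts in 6 of 7 tumors. These stromal ranges rest on 10 to 42 pericytes or fibroblasts per tumor and are descriptions without a test.

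Tgfb3, the isoform linked to palate fusion and scar formation, was shared by MPNST cells and fibroblasts. MPNST cells had 54.3 ± 11.9 CPM (SD, n = 7), from 43.9 CPM in control 2 to 74.9 CPM in irradiated 4. The summed stromal cells had 67.5 ± 22.9 CPM, and the difference was -0.19 ± 0.195 (log2, adjusted p = 0.411). Leaving out irradiated 4 alone brought a call (-0.36, adjusted p = 0.0487). Fibroblasts ran from 87.1 to 255 CPM and were above endothelial cells, at 0 to 4.55 CPM, in 7 of 7 tumors and above pericytes, at 11.9 to 141 CPM, in 6 of 7. Macrophages held a low level of 11.7 ± 3.44 CPM from 1164 UMIs, and T/NK cells 9 UMIs in all.

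Ltbp1, which tethers latent TGF-beta to the matrix, was highest in the tumor cells. MPNST cells had 305, 284 and 268 CPM in controls and 272, 305, 301 and 374 CPM in irradiated tumors, a mean of 301 ± 35.4 CPM (SD, n = 7). Stromal cells had 84.4 ± 61.9 CPM, lower than MPNST cells by a log2 difference of 2.18 ± 0.285 (adjusted p = 1.08e-06). Fibroblasts at 53.7 to 324 CPM and pericytes at 43.8 to 183 CPM carried it, while endothelial cells had 0 to 19.6 CPM. Levels of MPNST genes in the fibroblasts are given below. Macrophages had 324 UMIs and T/NK cells 12 UMIs in all, and these classes did not pass the test against each other (1.10 ± 0.773, adjusted p = 0.241). Classes taken from clusters turned that difference around (-1.24, adjusted p = 0.0119).

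**Figure D1:**
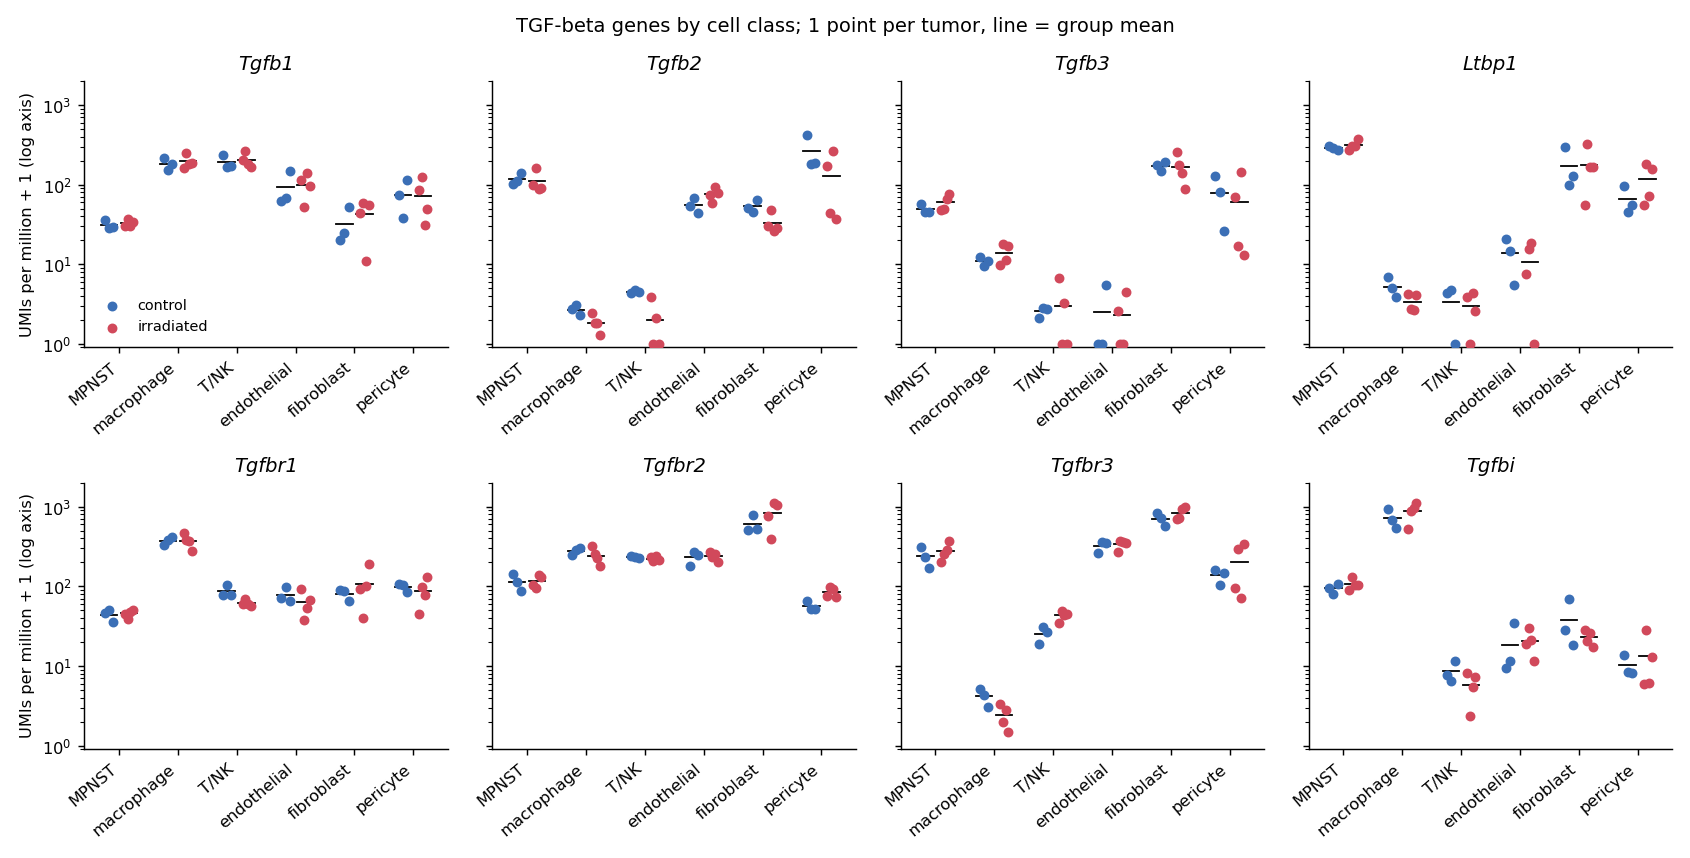
Levels of the 8 genes in 6 kinds of cells. Each point is a tumor, the y axis gives CPM plus 1 on a log axis, blue points are the 3 controls, red points the 4 irradiated tumors, and lines the group means; Tgfb1 is high in macrophage and T/NK cells, while Tgfb2, Ltbp1 and Tgfbr3 are high in MPNST cells and near the bottom in macrophages.

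Tgfbr1, the type I kinase that passes the signal on, was above all a macrophage transcript. Macrophages gave 328, 375 and 421 CPM in controls and 461, 385, 371 and 280.0 CPM in irradiated tumors. Stromal cells had 82.8 ± 19.9 CPM, T/NK cells 71.2 ± 16.5 CPM and MPNST cells 43.96 ± 5.61 CPM (SD, n = 7). MPNST cells lay below macrophages by a log2 difference of -3.49 ± 0.126 (adjusted p = 5.61e-20), below T/NK cells by -0.59 ± 0.132 (adjusted p = 0.000271) and below stromal cells by -0.75 ± 0.129 (adjusted p = 1.36e-05). Stromal and T/NK cells were neighbours that did not pass the test (0.16 ± 0.143, adjusted p = 0.341).

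Tgfbr2, the ligand-binding type II receptor, was the most widely shared of the set. Fibroblasts held the most, 390.2 to 1100.1 CPM, and were above endothelial cells (177 to 267 CPM) and pericytes (50.5 to 96.8 CPM) in 7 of 7 tumors. The summed stromal cells stood at 351 ± 93.2 CPM, macrophages at 257 ± 47.9 CPM, T/NK cells at 227 ± 13.6 CPM and MPNST cells at 115 ± 21.99 CPM (SD, n = 7). MPNST cells were lower than macrophages by -1.56 ± 0.133 (log2, adjusted p = 1.38e-11), lower than T/NK cells by -0.90 ± 0.136 (adjusted p = 1.27e-06) and lower than stromal cells by -1.44 ± 0.135 (adjusted p = 3.95e-10). Macrophages and stromal cells did not pass the test against each other (0.12 ± 0.134, adjusted p = 0.439). DESeq2 gave the opposite sign (-0.17), and leaving out irradiated 4 brought a call (0.30, adjusted p = 0.0379). The unscaled mean was higher in stromal cells, and TMM raised macrophages by 0.55 against them, so their order depended on the scaling.

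Tgfbr3 separated tumor cells and stroma from myeloid cells. MPNST cells had 312, 229.8 and 169 CPM in controls and 203, 254, 287 and 369.7 CPM in irradiated tumors, a mean of 261 ± 68.3 CPM (SD, n = 7). Stromal cells had 436 ± 73.9 CPM and exceeded MPNST cells, whose fitted difference was -0.61 ± 0.224 (log2, adjusted p = 0.0232). This call was lost without irradiated 1, control 2 or control 3 and when every gene with a UMI was tested (adjusted p = 0.0666). Fibroblasts ran from 567 to 979.5 CPM, endothelial cells from 261 to 369 CPM and pericytes from 70.7 to 334 CPM. Macrophages had 212 UMIs in all (2.15 ± 1.28 CPM), below T/NK cells (34.5 ± 11.0 CPM, 200 UMIs) by -3.53 ± 0.340 (log2, adjusted p = 5.92e-09).

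Tgfbi encodes a secreted matrix protein named for its induction by TGF-beta. It was strongest in macrophages, with 939, 678 and 537 CPM in controls and 521, 885, 971 and 1112 CPM in irradiated tumors. MPNST cells had 101 ± 15.6 CPM, stromal cells 19.9 ± 5.33 CPM and T/NK cells 5.99 ± 2.74 CPM (SD, n = 7). MPNST cells were below macrophages by -3.37 ± 0.165 (log2, adjusted p = 1.64e-16) and above stromal cells by 2.42 ± 0.198 (adjusted p = 4.57e-11). Stromal cells exceeded T/NK cells by 1.78 ± 0.326 (adjusted p = 3.23e-05), a call that was lost with classes from clusters (0.25, adjusted p = 0.534).

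Because MPNST cells carried more UMIs than macrophages (medians of 14719 to 31567 against 4286 to 12437 per cell), levels were also counted per cell. A macrophage held 1.92 ± 0.979 Tgfb1 UMIs and an MPNST cell 0.943 ± 0.279 (SD, n = 7 tumors), a narrower gap than that in CPM. For Tgfbr2 the order turned, with 3.49 ± 1.22 UMIs in an MPNST cell and 2.38 ± 0.720 in a macrophage. T/NK cells held 1.05 ± 0.381 for Tgfbr2 and stromal cells 3.44 ± 1.36. Tgfbr1 turned against T/NK and stromal cells, with 1.31 ± 0.325 UMIs in an MPNST cell, 0.321 ± 0.113 and 0.804 ± 0.284. So did Tgfbr3 against stromal cells (7.98 ± 3.21 against 4.35 ± 1.59) and Tgfb1 (0.943 against 0.748 ± 0.254). T/NK cells, at 0.959 ± 0.496, were near MPNST cells for Tgfb1. Macrophages stayed above MPNST cells for Tgfbr1 (3.51) and Tgfbi (8.37 against 3.07). Of all Tgfb1 UMIs in the retained cells of a tumor, macrophages held 49.3% ± 11.6 and MPNST cells 32.9% ± 10.0. MPNST cells held 85.6% ± 4.02 of the Tgfb2 UMIs, 79.4% ± 3.93 of Tgfb3, 86.6% ± 5.04 of Ltbp1 and 83.6% ± 3.47 of Tgfbr3. Macrophages held 58.8% ± 10.3 of Tgfbr1 and 57.9% ± 14.5 of Tgfbi. These shares depend on how many cells of each kind survived dissociation and describe the suspensions, not the intact tumors.

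**Figure D2:**
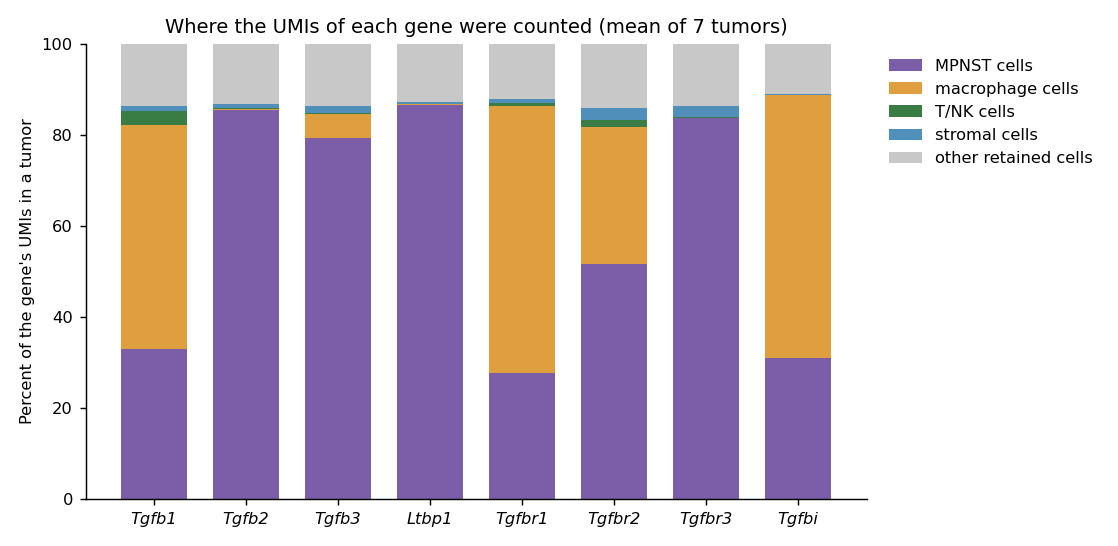
Share of each gene's UMIs by class. Bars give the mean percent over 7 tumors of the UMIs of a gene (x axis) counted in each class of cells, with grey for retained cells that met no gate; MPNST cells hold most UMIs of Tgfb2, Tgfb3, Ltbp1 and Tgfbr3, and macrophages the largest share of Tgfb1, Tgfbr1 and Tgfbi.

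Free RNA in a droplet suspension puts UMIs of abundant tumor genes into other cells, so low levels were set against 4 genes of MPNST cells that immune cells should lack. In macrophages these stood at medians of 1.04% (Col11a1), 2.498% (H19), 1.72% (Crabp1) and 0.884% (Col2a1) of their MPNST level in the same tumor. Tgfb2 at 0.941%, Ltbp1 at 1.06% and Tgfbr3 at 1.15% were within that span and are read as background in macrophages. Tgfb3 at 19.9% (15.6% to 35.4%) was above it in every tumor. In T/NK cells the 4 genes stood at 0% to 1.60% and Tgfbr3 at 14.8% (5.74% to 18.9%), whereas Ltbp1 at 1.06% was within the span and Tgfb2 at 2.52% and Tgfb3 at 3.43% rested on 10 and 9 UMIs. When each cell was thinned to 2000 UMIs, with shallower cells left out, 0.424% of macrophages, 4.54% of T/NK cells and 38.8% of MPNST cells had a Tgfbr3 UMI. In fibroblasts the 4 genes stood at medians of 9.50% (Col11a1), 46.7% (H19), 2.30% (Crabp1) and 0% (Col2a1), beside Ltbp1 at 47.7%. The part of tumor RNA in fibroblast levels was not tested.

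**Figure D3:**
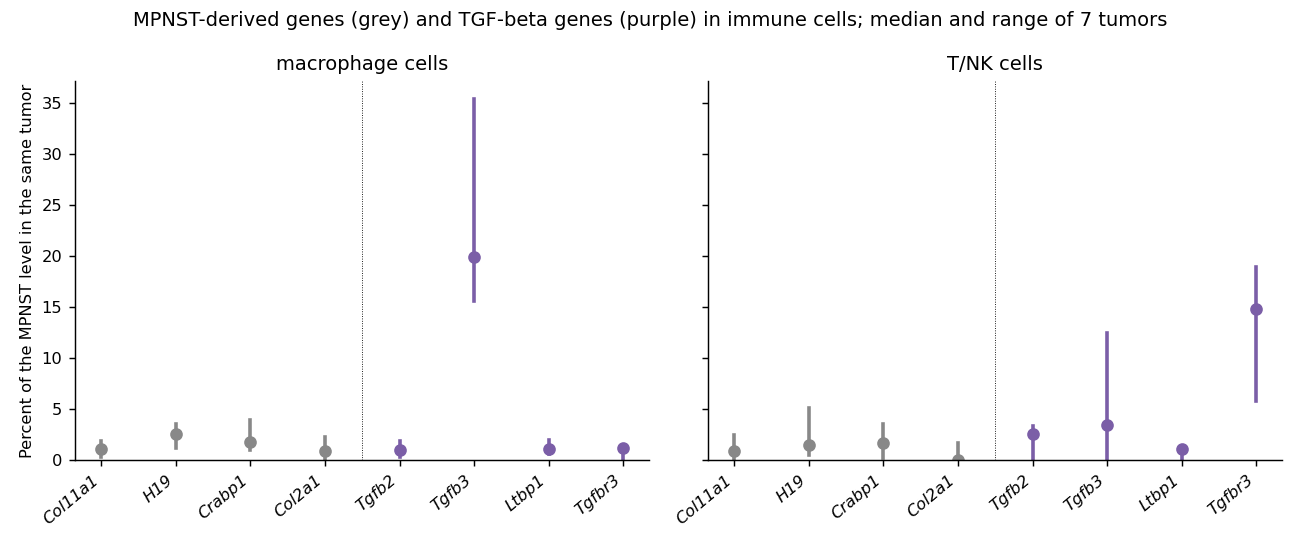
Levels in macrophages and T/NK cells as a percent of the MPNST level of the same tumor. Points are medians and lines ranges of 7 tumors for 4 MPNST genes (grey) and 4 TGF-beta genes (purple); in macrophages Tgfb3 stands at 19.9% while Tgfb2, Ltbp1 and Tgfbr3 lie near 1%, and in T/NK cells Tgfbr3 stands at 14.8%.

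Within the classes, the receptors and Tgfbi were uneven. Among 5 macrophage clusters, the one led by H2-Eb1 and other class II genes had the most Tgfbr1 (610.2 ± 119 CPM, SD, n = 7) and the one led by Ccl8 the least (268 ± 52.0 CPM). The Ccl8 cluster had instead the most Tgfbr2 (343 ± 17.7 CPM) and the least Tgfbi (391 ± 55.3 CPM). Tgfb1 hardly varied, from 182 to 197 CPM over these clusters. Clusters were built from the same cells, so these values are descriptions.

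Among T cells, Foxp3 cells had more Tgfbr1 than CD8 cells in 4 of 4 tumors with at least 20 of each, at 76.3 to 205 CPM against 28.9 to 60.1 CPM. They had less Tgfbr2 in 4 of 4, at 80.5 to 155 CPM against 245 to 345 CPM. Tgfbr3 was rare in Foxp3 cells, with 1 UMI in 122 cells of irradiated tumors and 3 UMIs in 72 cells of controls. In conventional CD4 cells it stood at 59.6 ± 30.9 CPM and in CD8 cells at 28.1 ± 26.2 CPM (SD, n = 6 tumors). NK cells had 1 Tgfbr3 UMI in 38 cells of irradiated tumors and 3 UMIs in 28 cells of controls.

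Among 10 MPNST clusters, Tgfbi varied most, from 18.1 ± 0.921 CPM (SD, n = 3) in the cluster led by Rerg to 157 ± 26.2 CPM (n = 7) in one led by Ace. Tgfb3, Tgfbr1 and Tgfbr2 were all highest in the cluster led by Cilp2 and Eln, at 102, 80.1 and 173 CPM. Tgfbr3 and Ltbp1 peaked in the cluster led by the interferon-induced gene Ifit1, at 385 ± 83.2 and 449.6 ± 64.4 CPM (n = 7), against 129 and 178 CPM in the lowest clusters. Tgfb2 was found at 78.6 to 144 CPM in all 10.

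**Figure D4:**
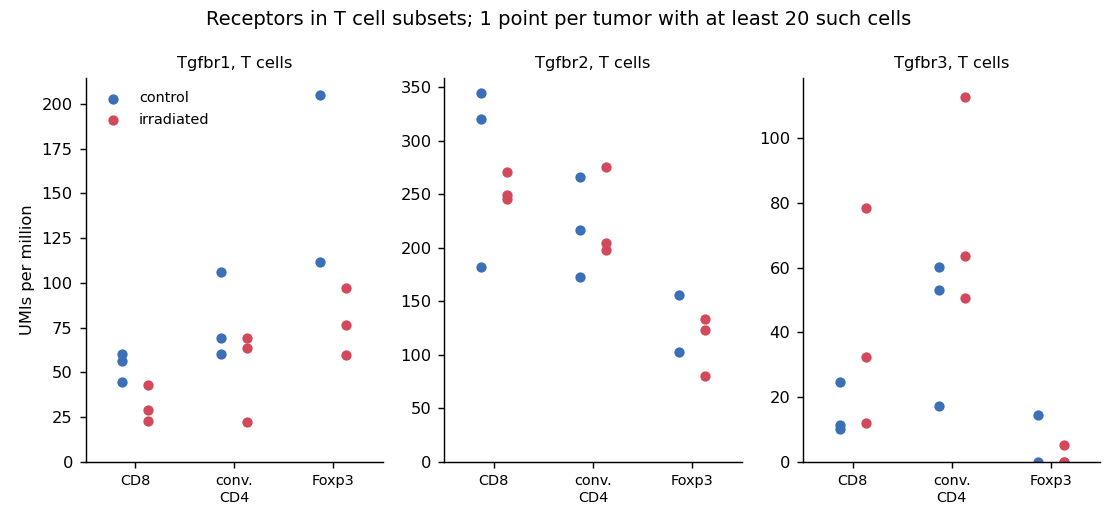
Receptors in subsets of T cells. Each point is a tumor with at least 20 such cells (blue control, red irradiated), columns are CD8, conventional CD4 and Foxp3 cells, and y axes give CPM; Foxp3 cells lie high for Tgfbr1 and low for Tgfbr2 and Tgfbr3.

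To assess the response to radiation, irradiated and control tumors were compared within each class. No gene of the set, and no gene at all, passed the adjusted threshold: 0% of 17405 genes in MPNST cells, 0% of 12816 in macrophages, 0% of 7570 in T/NK cells and 0% of 9459 in stromal cells (edgeR's quasi-likelihood test). At an unadjusted p under 0.05 the shares of all genes were 1.25%, 6.33%, 5.57% and 4.23% in the same order. DESeq2 called 0, 11, 1 and 0 genes, none of them among the genes of the set that edgeR tested in that class. Of the TGF-beta genes, 0 of 8, 2 of 8, 2 of 4 and 0 of 8 reached that unadjusted level, and Tgfb2, Tgfb3, Tgfbi and Ltbp1 were too low in T/NK cells to be tested.

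In T/NK cells the receptors Tgfbr1 and Tgfbr3 had opposite values. Tgfbr1 was counted at 76.0, 103 and 77.7 CPM in controls and 59.3, 67.5, 59.3 and 55.2 CPM in irradiated tumors. Tgfbr3 was counted at 17.9, 29.4 and 25.9 CPM in controls and 33.3, 48.2, 42.5 and 44.3 CPM in irradiated tumors. For both genes the groups did not overlap, which held for 7.15% of all genes tested in T/NK cells. None of the 8 genes had groups apart in MPNST cells, macrophages or stromal cells, where the share of all genes was 2.34%, 5.66% and 5.63%. The fitted log2 change was -0.55 ± 0.191 for Tgfbr1 and 0.77 ± 0.261 for Tgfbr3 (both adjusted p = 0.817). Over 15 alternatives the change stayed between -0.65 and -0.40 for Tgfbr1 and between 0.55 and 0.94 for Tgfbr3, with no adjusted p below 0.524 and 0.36.

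The libraries were split by cell number, depth and mitochondrial share into a pair of technical sets, with irradiated 1 and controls 2 and 3 in set 1 and the other 4 in set 2, so set 1 held a single irradiated tumor and set 2 a single control. No label names such sets. They were the best of 63 splits, and a share of 0.489 of the variation stayed within them, against 0.544 for the next split. The log2 difference for Tgfbr1 was -0.62 in set 1 and -0.40 in set 2, and for Tgfbr3 it was 0.24 and 1.26. Foxp3 cells, which differed in both receptors, made up 7.36% to 27.9% of T/NK cells in irradiated tumors and 8.57% to 23.5% in controls. Within CD8 cells the summed levels were 46.9 CPM (48 UMIs) in irradiated tumors and 16.7 CPM (8 UMIs) in controls for Tgfbr3, and 35.2 and 52.1 CPM for Tgfbr1. Within conventional CD4 cells they were 83.8 and 38.6 CPM for Tgfbr3, and 48.8 and 79.7 CPM for Tgfbr1. Within Foxp3 cells Tgfbr1 was counted at 76.4 CPM in irradiated tumors and 147 CPM in controls, and Tgfbr3 at 1.42 and 9.16 CPM. Sums of NK cells went the other way from the whole class for both genes. They were 77.3 and 72.7 CPM for Tgfbr1 and 3.09 and 12.1 CPM for Tgfbr3. These sums had few UMIs and were not tested.

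In macrophages the smallest p values fell on genes at background. Tgfbr3 had a log2 change of -1.25 ± 0.490 (edgeR, unadjusted p = 0.0336), Ltbp1 of -0.84 ± 0.335 (unadjusted p = 0.0355) and Tgfb2 of -1.05 ± 0.469 (unadjusted p = 0.0533), with adjusted p of 0.782, 0.782 and 0.786. The 4 MPNST genes were also lower on average in macrophages of irradiated tumors, to unlike degrees. Col11a1 fell most, at 16.2 to 32.3 CPM in controls and 2.30 to 16.4 CPM in irradiated tumors. Crabp1 fell least, at 23.4 to 58.4 CPM and 18.0 to 34.2 CPM, a ratio of means of 0.73. Col2a1 was at 1.29 to 1.49 CPM and 0 to 1.12 CPM. H19 stood at a mean of 18.9 CPM in controls and 10.9 CPM in irradiated tumors, and the 15 MPNST markers together at 30.9 and 18.6 CPM, with a range of 13.6 to 38.0 CPM and 1 marker at 0. The part of free RNA in the 3 values was not tested. Within technical sets 1 and 2 the Tgfbr3 difference was -0.20 and -2.09. Of the genes above background in macrophages, the changes were 0.08 ± 0.167 for Tgfb1, -0.03 ± 0.173 for Tgfbr1, -0.21 ± 0.191 for Tgfbr2, 0.26 ± 0.269 for Tgfbi and 0.36 ± 0.246 for Tgfb3 (log2, adjusted p = 0.921, 0.975, 0.844, 0.854 and 0.802). The make-up of the macrophages differed between tumors: the cluster led by H2-Eb1, which had the most Tgfbr1, held 43.2%, 9.68%, 11.5% and 3.78% of macrophages in irradiated tumors and 9.78%, 29.1% and 43.1% in controls. Its share was high in the 3 tumors of set 1 (irradiated 1, control 2 and control 3), the treatment groups overlapped, and its part in these changes was not tested.

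In MPNST cells the 8 changes ran from -0.17 ± 0.253 for Tgfb2 to 0.21 ± 0.155 for Tgfb3 on the log2 scale (adjusted p = 0.999 for each). The class was the deepest of the study, and its standard errors of 0.114 for Tgfb1 and Ltbp1 were the smallest of the set there. In stromal cells the changes ran from -0.46 ± 0.351 for Tgfb2 to 0.45 ± 0.675 for Ltbp1, whose highest value, 205 CPM, was that of irradiated 2 with 48 stromal cells. Changes well above 1 standard error could also go uncalled, as did those of Tgfbr1 and Tgfbr3 in T/NK cells. The absence of a call therefore does not exclude such changes in MPNST or stromal cells.

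**Figure D5:**
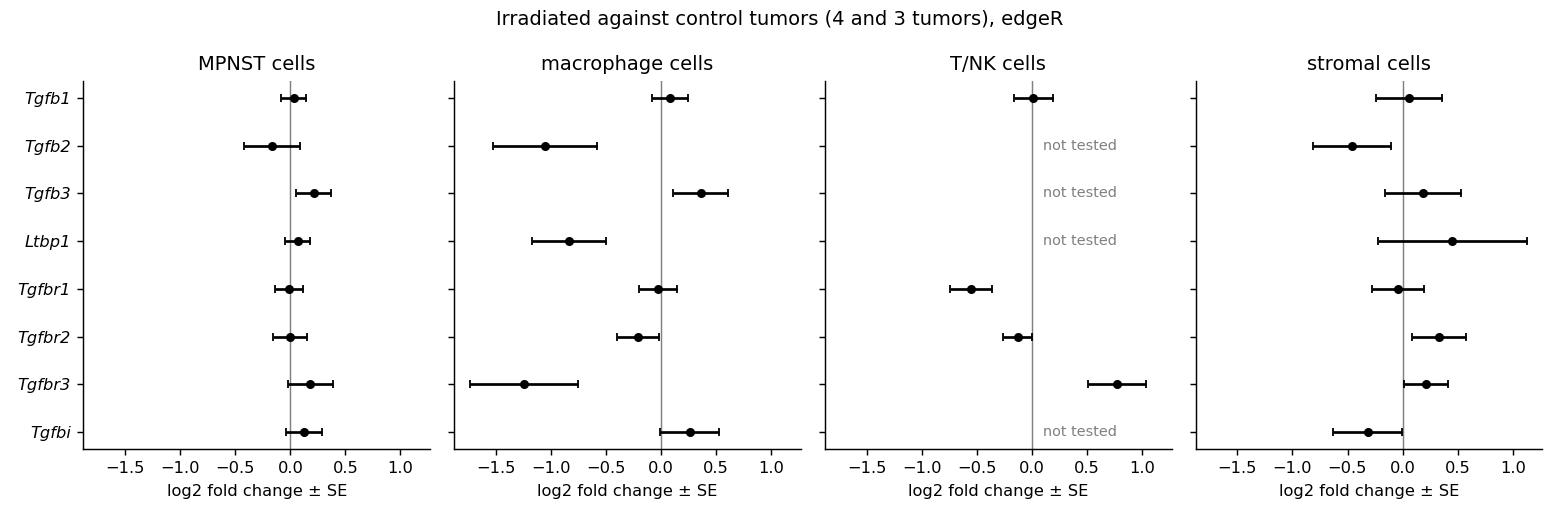
Response of the 8 genes to radiation in 4 classes. Points are log2 fold changes of 4 irradiated against 3 control tumors with standard errors (x axis), and genes are rows; all lie near 0 in MPNST cells, Tgfbr1 lies at -0.55 and Tgfbr3 at 0.77 in T/NK cells, and 4 genes were not tested there.

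The remaining genes of the pathway were taken as 5 lists of latency, receptor, signal, inhibitor and target genes. The share of all genes called higher and lower was 43.3% and 36.4% in MPNST cells against macrophages, 43% and 28.6% against T/NK cells and 32.4% and 27.9% against stromal cells. It was 35.5% and 24.1% in macrophages against T/NK cells, 35.1% and 35.5% in macrophages against stromal cells and 36.4% and 26.3% in stromal against T/NK cells. Of 18 genes of latency and activation, 17 were tested between classes. MPNST cells were higher than macrophages in 12 and lower in 5, with a median log2 difference of 2.02 against 0.15 over all genes. Against T/NK cells they were higher in 11 and lower in 6, and against stromal cells higher in 8 and lower in 7. Nrros, which tethers latent TGF-beta to myeloid cells, stood at 262 CPM in macrophages, 82.1 CPM in T/NK cells and 0.415 CPM in MPNST cells. Itgb8, an integrin subunit that activates TGF-beta, stood at 169 CPM in T/NK cells, 74.1 CPM in MPNST cells and 0.568 CPM in macrophages. The fibrillin gene Fbn1, a matrix partner of latent binding proteins, stood at 518 CPM in stromal and 244 CPM in MPNST cells and under 4 CPM in both immune classes. Lrrc32, which holds latent TGF-beta on cell surfaces, was highest in stromal cells at 76.1 CPM.

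Of 9 accessory and related receptors, 8 were lower in MPNST than in stromal cells and 1 was higher, and all 9 were higher in stromal than in T/NK cells. Macrophages were higher than T/NK cells in 8 and lower in 0, and lower than stromal cells in 6 and higher in 0. Eng (endoglin), a co-receptor of vessel cells, stood at 392 CPM in stromal and 3.00 CPM in MPNST cells, and its partner kinase Acvrl1 at 52.6 CPM in stromal cells, 41.6 CPM in macrophages and 0.994 CPM in MPNST cells. Of 10 signal transducers, 5 were higher and 3 lower in MPNST cells than in macrophages, with a median of 0.22 that was close to that of all genes. Of 11 inhibitors and feedback genes, 4 were higher and 6 lower in MPNST cells than in macrophages. Pmepa1, a feedback inhibitor, stood at 759 CPM in macrophages and 209.5 CPM in MPNST cells, and Smad7, the inhibitory Smad, at 232 CPM in T/NK cells and 47.3 CPM in MPNST cells.

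Of 22 target genes, 17 were higher and 3 lower in MPNST cells than in macrophages, with a median log2 difference of 5.03, and 19 were higher and 3 lower than in T/NK cells. Against stromal cells 4 were higher and 10 lower. Macrophages were lower than stromal cells in 18 and higher in 2, with a median of -5.07 against -0.01 over all genes. They were mostly matrix genes, and Col1a2 stood at 4299 CPM in MPNST cells, 2267 CPM in stromal cells and 58.5 CPM in macrophages. Tagln, a contractile gene of vessel-wall cells, stood at 740 CPM in stromal cells and 7.92 CPM in MPNST cells.

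Between irradiated and control tumors, 0 genes of the 5 lists passed the adjusted threshold in any class. In macrophages 8 of 18 target genes tested had an unadjusted p under 0.05, and their median log2 change was -1.03, against -0.0035 over all genes (6.33% of all genes at that level). The smallest p was that of Col4a1 (-1.35, edgeR, unadjusted p = 0.00192, adjusted p = 0.782), a basement membrane collagen at 2.8 CPM in macrophages and 200.2 CPM in MPNST cells. The levels of the MPNST genes Col11a1, H19, Crabp1 and Col2a1 in macrophages are given above. In the other lists the smallest p values in macrophages were those of Ltbp3 (-0.91, unadjusted p = 0.00525), Smad2 (0.19, unadjusted p = 0.0328), Eng (0.46, unadjusted p = 0.0437) and Usp15 (0.18, unadjusted p = 0.0729). In T/NK cells the smallest p among targets was that of Postn (-1.08, unadjusted p = 0.00655, adjusted p = 0.817), at 22.5 CPM there and 1239 CPM in MPNST cells. The MPNST genes moved with it in T/NK cells, with Col11a1 at a mean of 29.5 CPM in controls and 8.85 CPM in irradiated tumors, H19 at 22.9 and 8.50 CPM and Crabp1 at 40.8 and 18.3 CPM, and their part in its value was not tested. In MPNST cells the smallest p values of the lists were those of Thbs1 (-0.41), Nrp1 (-0.22), Traf6 (0.25), Usp15 (0.15) and Timp1 (-0.22), all with an adjusted p of 0.999. In stromal cells Pmepa1 (0.47, unadjusted p = 0.0222), Emilin1 (0.56, unadjusted p = 0.0296) and Col3a1 (0.51, unadjusted p = 0.046) had the smallest p of their lists, each with an adjusted p of 0.98.

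Over the 28 sums of class and tumor, the genes whose log2 levels followed each gene most closely were listed as a description, since sums of 1 class share their cell type. Tgfb1 was closest to Irak2 (r = 0.978), Gmfg and Pim1, and Tgfb2 to Fat1 (r = 0.988), Prickle2 and Fstl1. Tgfb3 was closest to Mtmr11 (r = 0.978), Igfbp4 and Mrrf, and Ltbp1 to Zc2hc1a (r = 0.974), 2310022B05Rik and Prrx2. Among receptors, Tgfbr1 was closest to Apoe (r = 0.986), Ang and C1qa (which is among the markers that chose macrophages), Tgfbr2 to Pdgfb (r = 0.933), Abca3 and Lpar6, and Tgfbr3 to Ryk (r = 0.986), Dab2ip and Mast4. Tgfbi was closest to Snx8 (r = 0.979), Slc12a9 and Blvrb.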

How the data were processed

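Cells of 7 tumors were profiled with the 10x 3′ v3.1 assay, with 10000 cells loaded per library after 45 minutes of papain at 37 °C. The authors deposited whole UMI counts for each gene and cell, and the file headers name Cell Ranger 8.0.0. The submitters' processing notes name mm10 and Seurat 4.4, and the paper names an earlier Cell Ranger version. Of 33696 gene identifiers, 31961 are in GENCODE M21, so the annotation was another release. Coordinates are those of M21. Whether intronic reads were counted is not given in the sources used here.

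The genes, gene lists and markers were chosen with earlier results of these data known. A cell was dropped when it lay over 3 median absolute deviations from its own library's median. MPNST cells had at least 3 of 15 markers and no Xist UMI, macrophages 7 of 14, T/NK cells 4 of 16, endothelial cells 5 of 10, pericytes 6 of 10, and fibroblasts 5 of 10 with Xist, with limits on the markers of other classes. The thresholds were set on the data without the 8 genes. Fibroblasts carried MPNST-list markers too, at 776 to 1861 CPM against 1859 to 2779 CPM in MPNST cells. Of the retained cells, 6122 met no gate. Scrublet (scanpy 1.11.5) called 735 of the retained cells doublets (2.14%), and they were kept except in an alternative. Leiden clusters were named from the same markers and served as an alternative.

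Counts were summed per tumor and class and tested with edgeR 4.0.16 (filterByExpr, TMM, robust quasi-likelihood, Benjamini-Hochberg adjustment over all genes tested, threshold 0.05), and the script was tested on simulated data. TMM moved the medians between classes by up to 0.55 on the log2 scale. The named genes were the 8 genes in every class and tumor, at most 2 genes per list and class comparison with the largest change past the threshold, the gene of smallest p per list in the treatment comparison, and the 3 genes most like each gene by Pearson r (mean of at least 10 CPM). The tumor is the replicate, so p-values between irradiated and control tumors are set against the spread between tumors. Those between classes, with the tumor as a block, are set against the spread of the class difference across tumors. DESeq2 1.42.0, other filters and other cell classes were alternatives. The labels give replicate numbers without saying that they pair tumors. Same-numbered tumors showed no clear shared deviation, which cannot exclude pairing. The main fits hold no replicate block, and a fit with it was an alternative. A split of macrophages by further markers is not reported here.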

Additional observations from a re-analysis of the deposited data

Results flagged for a closer look

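Of 28 sets of 4 irradiated tumors examined (8 genes in 4 classes, those with at least 20 UMIs), 1 held a value far from the others, where chance alone marks about 1 in 20. Tgfb2 in MPNST cells stood at 159 CPM in irradiated 2, against 87.5 to 97.6 CPM in the other 3 irradiated tumors and 102 to 137 CPM in controls. Irradiated 2 was also the highest of the 7 tumors for Tgfbi in MPNST cells (129 CPM) and for Tgfb1 in macrophages (249.5 CPM). The cause was not tested.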

How the results depend on the processing

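The differences between classes were the steadier results. Of the 8 genes in 6 class comparisons, 2 changed sign: Ltbp1 between macrophages and T/NK cells was -1.24 with classes from clusters, and Tgfbr2 between macrophages and stromal cells was -0.17 with DESeq2. The counts of genes called between classes stayed within 1.5 times their value in every alternative run. Between irradiated and control tumors, the count of genes called rose from 0 to 11 in macrophages with DESeq2. In T/NK cells it was 1 with DESeq2, with the technical set as a term and with equal numbers of cells, and 64 when every gene with a UMI was tested, which also gave 3 in stromal cells. Leaving out 1 tumor gave 0 to 2 in T/NK cells, with 2 without irradiated 2 and 1 without irradiated 4. In MPNST cells, macrophages and stromal cells, none of the 8 genes was called between irradiated and control tumors in any alternative. In T/NK cells this held for Tgfb1, Tgfbr1, Tgfbr2 and Tgfbr3. There Tgfb2, Tgfb3, Tgfbi and Ltbp1 were not followed through the alternatives.

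Signs of treatment differences near 0 changed (log2 values). With the technical set as a term, Tgfb1 was -0.031 in MPNST cells, -0.054 in macrophages and -0.049 in T/NK cells, Tgfbr3 was -0.036 in MPNST cells, Tgfbr1 0.13 and Tgfbi -0.069 in macrophages, and Ltbp1 -0.27 in stromal cells. With equal numbers of cells, Tgfb1 was -0.034 and Tgfbr2 0.021 in MPNST cells, and Tgfb1 -0.011 and Tgfb3 -0.17 in stromal cells. With classes from clusters, Tgfbr2 was 0.0054 in MPNST cells, Ltbp1 0.070 in macrophages, and Tgfb1 -0.030 and Tgfbr1 0.31 in stromal cells. Endothelial cells alone gave 0.49 for Tgfb2, and fibroblasts with pericytes gave -0.021 for Tgfb3 and 0.10 for Tgfbr1.

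With 1 tumor left out, MPNST cells ran from -0.060 to 0.076 for Tgfb1, -0.45 to 0.029 for Tgfb2, -0.11 to 0.069 for Tgfbr1, -0.12 to 0.12 for Tgfbr2, -0.023 to 0.28 for Tgfbi and -0.024 to 0.089 for Ltbp1. Macrophages ran from -0.059 to 0.22 for Tgfb1 and -0.15 to 0.089 for Tgfbr1, and T/NK cells from -0.13 to 0.20 for Tgfb1. Stromal cells ran from -0.16 to 0.59 for Tgfb1, -0.23 to 0.073 for Tgfbr1 and -0.28 to 1.15 for Ltbp1. The cause of these changes was not tested.

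The deviations of same-numbered irradiated and control tumors had correlations of -0.70 to 0.15. They gave no clear sign of pairing, and so few tumors cannot exclude it. With the replicate block, 0 genes were called in each class, and Tgfbr1 in macrophages was 0.089, while Tgfbr1 was -0.51 and Tgfbr3 0.71 in T/NK cells. Depth limits the T/NK and stromal classes, whose summed UMIs per tumor were 543570 to 1285532 and 550268 to 1196480, against 24687929 to 94770235 in MPNST cells.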
